A study of Homo sapiens with 6 samples.

Results

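This account covers 50 genes of epithelial cell junctions, cell polarity and keratins in MDA-MB-231, a human triple-negative breast cancer line. The members are a fixed list of gene symbols, chosen with earlier results of these data known and matched to the platform annotation of Human Clariom S arrays. Of the 50 genes, 44 were found among the 21448 transcript clusters, and F11R, ESRP2, KRT6A, KRT15, KRT17 and KRT81 were not matched by name and were not analysed here. For KRT81 a name was at hand only from a list of genes changed on these arrays, which was not used because it depends on the outcome, so the keratin counts leave it out. MDA-MB-231-hOSM cells carry pUNO1-hOSM (2 μg, stable transfection), which makes them express human oncostatin M (OSM), a cytokine of the IL-6 family. Their control, MDA-MB-231-hC, received the same amount of empty pUNO1 vector, and both were kept under blasticidin at 10 μg/mL. RNA was taken from 3 nonconsecutive passages of the 2 lines grown in parallel, taken here as sets 1, 2 and 3 after the replicate numbers of the labels (n = 3 arrays per line). The sources describe passages and not separate transfections, so OSM itself and chance differences from transfection or selection cannot be told apart, and the p-values measure only the spread over passages. Because RNA came from whole cultures, fewer cells with a transcript and less of it per cell cannot be told apart either.

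Epithelial cells are held together by tight junctions, in which claudins and occludin seal the space between cells and ZO proteins tie them to actin, and by desmosomes, in which desmogleins and desmocollins are linked through plakoglobin, plakophilins and desmoplakin to keratin filaments. Keratin filaments form from pairs of a type I and a type II keratin, KRT18 with KRT8 in simple epithelia. MDA-MB-231 is known as a mesenchymal-like, claudin-low line that lacks E-cadherin but keeps simple epithelial keratins.

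The transfected gene matched the labels. OSM had log2 signals of 14.90, 14.82 and 14.69 in MDA-MB-231-hOSM cells, against 5.06, 5.11 and 5.26 in MDA-MB-231-hC cells. The 6 array medians lay between 6.82 and 6.85. As a guide to background served 5.78, the 95th percentile of the mean signals of 348 olfactory receptor genes, since this file has no detection p-values. VIM, a mesenchymal filament gene known to be abundant in this line, lay between 16.24 and 16.42 on all arrays. Of the other chosen markers of the line, CD44 was higher in MDA-MB-231-hOSM (log2 difference 0.71, adjusted p = 0.0175 from limma). AXL was lower there (log2 difference -0.86, adjusted p = 0.00843), and EGFR had a log2 difference of 0.18 (adjusted p = 0.386). All 3 changes were under 2-fold. ESR1 and PGR, which mark luminal breast cells, lay below the guide on all arrays. Of 5 measured leukocyte markers, CD14 alone was called (log2 difference 8.42), while PTPRC, CD3E and LYZ lay below the guide on all arrays and CD68 well above it in both lines. None of 5 fibroblast and 3 endothelial markers was called. The mean log2 signal over the leukocyte markers was 8.04 to 8.33 in MDA-MB-231-hOSM and 6.40 to 6.66 in MDA-MB-231-hC, and over the other 4 without CD14 it was 6.83 to 6.94 in MDA-MB-231-hOSM and 6.84 to 6.94 in MDA-MB-231-hC. Over the fibroblast markers it was 5.87 to 6.05 in MDA-MB-231-hOSM and 5.61 to 5.79 in MDA-MB-231-hC, and over the endothelial markers 4.73 to 4.90 in MDA-MB-231-hOSM and 4.84 to 5.003 in MDA-MB-231-hC. The part of these levels in the results below was not tested.

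Among the 44 measured members, 7 were lower in MDA-MB-231-hOSM, 3 were higher and 34 did not pass, relative to MDA-MB-231-hC. Members that passed in the tight junction, desmosome, and polarity and epithelial identity groups were all lower. The polarity genes PARD3, CRB3 and LLGL2 did not pass. The measured keratins that passed were all higher. The genes that fell were OCLN, CLDN4, PKP2, PERP, EPCAM, MAL2 and LMO7, and those that rose were KRT8, KRT18 and KRT19. This split depends on the 2-fold limit given below. Without a fold limit, DSG2, CLDN12 and CLDN7 also passed as higher, and KRT80 and ESRP1 as lower. A gene passed with a Benjamini-Hochberg adjusted p under 0.1 over all transcript clusters, from limma with the set as a block, and a change of more than 2-fold. Of all 21448 transcript clusters 4.16% passed, 2.60% as higher and 1.57% as lower. Of those whose mean over all 6 arrays was at or above the background guide 6.17% passed, a filter unlike that by line used for the members next. Of the 44 members 22.7% passed, and of the 24 members above the guide in both lines 37.5%. Because the members were chosen with earlier results known, these shares describe the list and are no test of it. The median log2 difference was -0.06 over the members and -0.03 over all transcript clusters. Without a fold limit 15 members had an adjusted p under 0.1, against 19.7% of all transcript clusters. In 25 members the 3 arrays of one line all lay on one side of those of the other (56.8%), as in 10714 of the 21448 transcript clusters. With 1 set left out, the members that passed numbered 3 lower and 2 higher without set 1, 3 lower and 2 higher without set 2, and 5 lower and 0 higher without set 3. OCLN, PKP2 and MAL2 passed in each of these settings.

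The bases before the start sites of OCLN, CLDN4, PERP, CLDN12 and DSG2 are shown because their RNA fell (OCLN, CLDN4, PERP) or had an adjusted p under 0.1 with a positive difference (CLDN12, DSG2) and because each holds a match to a searched motif. The sequences are the 250 bases upstream of the RefSeq start site in GRCh38.p14, 1 start per gene, written 5′ to 3′ on the strand of the gene, and capitals mark the motif matches.
OCLN, chr5:69492297-69492546, plus strand: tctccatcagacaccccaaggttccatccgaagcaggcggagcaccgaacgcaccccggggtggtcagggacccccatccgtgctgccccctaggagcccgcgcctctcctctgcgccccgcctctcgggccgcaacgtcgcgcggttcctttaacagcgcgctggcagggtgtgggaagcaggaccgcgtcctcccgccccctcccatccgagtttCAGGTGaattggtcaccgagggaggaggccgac
CLDN4, chr7:73830746-73830995, plus strand: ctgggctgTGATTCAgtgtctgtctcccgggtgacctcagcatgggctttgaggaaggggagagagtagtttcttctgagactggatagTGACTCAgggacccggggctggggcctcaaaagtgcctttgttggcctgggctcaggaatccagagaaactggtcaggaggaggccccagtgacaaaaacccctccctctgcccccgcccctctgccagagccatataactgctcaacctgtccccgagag
PERP, chr6:138107420-138107669, minus strand: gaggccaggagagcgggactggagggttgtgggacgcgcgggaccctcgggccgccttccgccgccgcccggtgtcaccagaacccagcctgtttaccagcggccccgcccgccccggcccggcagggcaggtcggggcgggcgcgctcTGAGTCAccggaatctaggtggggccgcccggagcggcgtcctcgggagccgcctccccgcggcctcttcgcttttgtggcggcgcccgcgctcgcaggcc
CLDN12, chr7:90403211-90403460, plus strand: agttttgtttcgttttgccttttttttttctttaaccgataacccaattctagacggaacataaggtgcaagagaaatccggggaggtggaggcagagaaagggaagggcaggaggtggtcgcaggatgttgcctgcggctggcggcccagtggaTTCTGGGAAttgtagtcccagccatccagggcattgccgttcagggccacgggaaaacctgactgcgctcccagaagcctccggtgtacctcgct
DSG2, chr18:31497927-31498176, plus strand: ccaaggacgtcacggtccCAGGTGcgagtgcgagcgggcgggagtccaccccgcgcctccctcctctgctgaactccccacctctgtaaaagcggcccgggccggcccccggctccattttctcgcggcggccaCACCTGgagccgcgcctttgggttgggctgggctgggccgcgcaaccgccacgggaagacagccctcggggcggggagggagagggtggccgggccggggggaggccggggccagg
The motifs searched on both strands were the E2-box CACCTG, which SNAI and ZEB repressors are known to bind, the STAT motif TTCNNNGAA, the AP-1 motif TGANTCA, the GRHL motif AACCNGTT and the TATA box TATAAA. A palindromic match on both strands counts as 1, and the matches in the printed sequences do not overlap. OCLN had an E2-box at position -33 from the start site, CLDN4 had AP-1 matches at positions -242 and -161, and PERP had one at position -101. DSG2 had E2-boxes at positions -232 and -116, and CLDN12 a STAT match at position -95. The table held upstream sequences for 27 of the 50 members. Of these, 7 had an E2-box, against 17.5% of 27305 promoters of the table, 2 a STAT match (6.78% of all), 3 an AP-1 match (6.60% of all), 1 a GRHL match (1.48% of all) and 0 a TATA box (11.1% of all). The other E2-boxes were in TJP1, DSP, DSC2, CRB3 and KRT5, none of which passed, and CRB3 had 5 of them. LMO7, which fell, and KRT8, which rose, had no match in these windows. PKP2, MAL2, EPCAM, KRT18 and KRT19 also passed but had no upstream sequence in the table and were not searched. A match describes the letters alone.

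In the tight junction, occludin and claudin-4 transcripts fell, whereas those of claudin-7 and claudin-12 were higher but under 2-fold. OCLN encodes occludin, a membrane protein with 4 spans through the membrane. Its log2 signals were 9.18, 9.13 and 9.61 in MDA-MB-231-hOSM, against 11.26, 11.39 and 10.91 in MDA-MB-231-hC. The groups lay well apart, with the smallest gap in set 3, and the mean was 3.68-fold lower in MDA-MB-231-hOSM (log2 difference -1.88, SE 0.20, adjusted p = 0.00343 from limma). The OCLN sequence above holds an E2-box close to the start site, and that of DSG2, whose difference was positive, holds E2-boxes as well. A role of these matches was not tested. MARVELD2, which encodes tricellulin, is the neighboring coding gene of OCLN on chromosome 5, and had a log2 difference of 0.10 (adjusted p = 0.644). CLDN4, a claudin of barrier epithelia, had 5.99, 5.78 and 6.23 in MDA-MB-231-hOSM, against 7.10, 7.45 and 6.91 in MDA-MB-231-hC. The arrays did not overlap, but those of MDA-MB-231-hOSM lay close to the background guide, so the change of 2.22-fold is limited by it (log2 difference -1.15, SE 0.20, adjusted p = 0.0176). CLDN4 did not pass without set 1 (-1.18, adjusted p = 0.128) or set 2 (-0.90, adjusted p = 0.113), and over all alternatives its adjusted p was 0.00346 to 0.128. CLDN3, the neighboring coding gene of CLDN4 on chromosome 7, lay below the guide in both lines.

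CLDN7 signals were 10.22, 10.38 and 10.90 in MDA-MB-231-hOSM, against 9.83, 9.78 and 9.22 in MDA-MB-231-hC, a difference of 0.89 on the log2 scale or 1.85-fold (SE 0.25, adjusted p = 0.0723). The gap was widest in set 3, and without that set the log2 difference was 0.50 (adjusted p = 0.200, within 0.0221 to 0.211 over the alternatives). CLDN12, an unusual claudin without the C-terminal motif that binds ZO proteins, had 10.84, 10.84 and 10.92 in MDA-MB-231-hOSM and 10.08, 10.10 and 10.01 in MDA-MB-231-hC. Its arrays were tightly grouped and 1.75-fold apart (log2 difference 0.80, SE 0.12, adjusted p = 0.0113). TJP1, which encodes the scaffold ZO-1, had 12, 11.94 and 11.89 in MDA-MB-231-hOSM and 12.03, 12.10 and 12.16 in MDA-MB-231-hC, and the 95% interval of its log2 difference was -0.45 to 0.14. CLDN1 signals overlapped, at 7.10, 6.63 and 7.06 in MDA-MB-231-hOSM and 6.57, 7.09 and 6.65 in MDA-MB-231-hC (log2 difference 0.16, adjusted p = 0.662; -0.03 without set 1 and 0.47 without set 2). MARVELD3 did not pass (log2 difference -0.18). The remaining 9 of the 17 measured tight junction genes, CLDN2, CLDN3, CLDN6, CLDN8, CLDN9, CLDN10, CLDN11, TJP3 and CGN, lay below the guide in both lines, so a change there cannot be judged.

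Desmosome transcripts did not move as a block. PKP2, which encodes plakophilin 2, a plaque protein that links desmosomal cadherins to desmoplakin, had log2 signals of 11.41, 11.49 and 11.72 in MDA-MB-231-hOSM, against 13.65, 13.61 and 13.40 in MDA-MB-231-hC. Both groups were compact and far apart, and PKP2 was 4.04-fold lower in MDA-MB-231-hOSM (log2 difference -2.01, SE 0.15, adjusted p = 0.000936). It passed in all 17 alternatives, several of which drop the block and count the 2 arrays of a set as independent. PERP, a p53 target that encodes a membrane protein of desmosomes, had 10.06, 10.41 and 10.44 in MDA-MB-231-hOSM, against 11.57, 11.27 and 11.27 in MDA-MB-231-hC. The 2 groups did not overlap and were 2.09-fold apart, close to the fold limit (log2 difference -1.07, SE 0.17, adjusted p = 0.0138). PERP did not pass without set 1, 2 or 3, with log2 differences of -0.85, -1.17 and -1.19 and adjusted p-values of 0.0792, 0.110 and 0.118 within 0.00103 to 0.118 over the alternatives. DSG2, the desmoglein of simple epithelia, had 12.42, 12.26 and 12.42 in MDA-MB-231-hOSM and 11.33, 11.51 and 11.32 in MDA-MB-231-hC, all arrays of MDA-MB-231-hOSM being higher, and remained just under the limit at 1.97-fold (log2 difference 0.98, SE 0.13, adjusted p = 0.00795). Without set 2 it passed, at 1.09 (adjusted p = 0.0630, within 0.000281 to 0.113 over the alternatives).

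DSP, which encodes desmoplakin, the link to keratin filaments, had 10.34, 10.46 and 10.64 in MDA-MB-231-hOSM and 10.24, 10.16 and 9.96 in MDA-MB-231-hC, a log2 difference of 0.36 that did not pass (95% interval -0.0036 to 0.72, adjusted p = 0.176). JUP, which encodes plakoglobin, had 5.83, 5.49 and 6.14 in MDA-MB-231-hOSM and 5.73, 6.09 and 5.44 in MDA-MB-231-hC. These overlap around the background guide, and the log2 difference of 0.07 was -0.25 without set 3 and 0.40 without set 2. DSC2 and PKP4 lay above the guide with log2 differences of 0.29 and -0.21, which did not pass. PKP1, PKP3, DSC3 and DSG3 lay below the guide in both lines. DSC2, DSC3, DSG2 and DSG3 belong to 1 cluster of desmosomal cadherin genes on chromosome 18, in which DSG2 and DSG3 are neighboring coding genes.

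**Figure D1:**
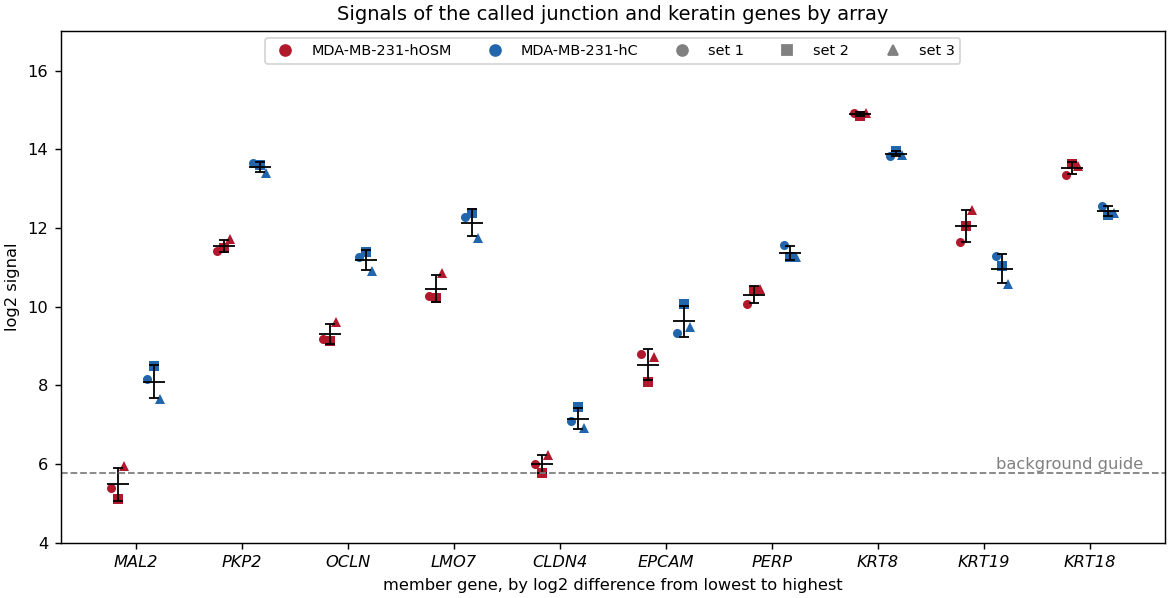
Log2 signal on each array for the 10 members that passed, ordered by log2 difference. Red points are MDA-MB-231-hOSM and blue points MDA-MB-231-hC, the marker shape gives the set, and bars are the mean ± SD of 3 arrays. The dashed line is the background guide of 5.78, below which the MDA-MB-231-hOSM mean of MAL2 lies. Heights of different genes are not comparable, because each has its own probes.

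Among the genes of polarity and epithelial identity, MAL2, LMO7 and EPCAM fell and none rose. MAL2, which encodes a membrane protein of transcytosis to the apical surface, had log2 signals of 5.40, 5.11 and 5.94 in MDA-MB-231-hOSM, against 8.16, 8.48 and 7.65 in MDA-MB-231-hC. Of the MDA-MB-231-hOSM arrays only that of set 3 exceeded the background guide, so the 6.12-fold lower value sets a signal against a background level (log2 difference -2.61, SE 0.30, adjusted p = 0.00410). LMO7, an actin-linked protein at adherens junctions, had 10.28, 10.23 and 10.85 in MDA-MB-231-hOSM, against 12.29, 12.37 and 11.75 in MDA-MB-231-hC. It was 3.21-fold lower with no overlap (log2 difference -1.68, SE 0.25, adjusted p = 0.0108), and did not pass without set 1 (-1.52, adjusted p = 0.112) or set 2 (-1.46, adjusted p = 0.126), its adjusted p over all alternatives being 0.00149 to 0.126. EPCAM, the epithelial cell adhesion molecule, had 8.79, 8.08 and 8.71 in MDA-MB-231-hOSM, against 9.33, 10.07 and 9.48 in MDA-MB-231-hC. Its arrays did not overlap, but set 2 carried much of the change of 2.14-fold (log2 difference -1.10, SE 0.28, adjusted p = 0.0525). Leaving out set 2 gave -0.66 (adjusted p = 0.133), and leaving out set 1 or 3 gave -1.38 and -1.27 with adjusted p-values of 0.128 and 0.211, within 0.0161 to 0.211 over the alternatives.

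CDH1, which encodes E-cadherin, lay in the background range on all arrays, at 3.77, 3.84 and 4.07 in MDA-MB-231-hOSM and 4.06, 4.01 and 3.79 in MDA-MB-231-hC. A further fall could not have been seen there (log2 difference -0.06, adjusted p = 0.828; 0.055 without set 1 and -0.23 without set 3). ESRP1, an epithelial splicing regulator, and LLGL2, a basolateral polarity protein, also lay below the guide in both lines. ESRP1 had an adjusted p of 0.0747 at means of 3.52 in MDA-MB-231-hOSM and 3.94 in MDA-MB-231-hC, a difference between background levels. The polarity genes PARD3 and CRB3 lay above the guide, with log2 differences of -0.26 and 0.21 that did not pass.

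Of the 8 measured keratins, KRT8, KRT18 and KRT19, which belong to simple epithelia, rose, and the other 5, KRT7 of simple epithelia among them, did not pass. None of these 3 passed without set 3. KRT8 had log2 signals of 14.91, 14.84 and 14.93 in MDA-MB-231-hOSM, against 13.84, 13.96 and 13.86 in MDA-MB-231-hC. These were compact groups, just past the limit at 2.01-fold (log2 difference 1.01, SE 0.12, adjusted p = 0.00516). With quantile normalization the log2 difference was 0.96, and without set 1 or set 3 it was 0.98, each just under the limit with adjusted p-values of 0.00514, 0.0661 and 0.0937 within 2.88e-05 to 0.0937 over the alternatives. Its partner KRT18 had 13.34, 13.63 and 13.57 in MDA-MB-231-hOSM, against 12.57, 12.33 and 12.38 in MDA-MB-231-hC, a rise of 2.12-fold without overlap (log2 difference 1.09, SE 0.15, adjusted p = 0.00791). KRT18 did not pass without set 2 (0.98, adjusted p = 0.1004) or set 3 (1.03, adjusted p = 0.122), with 0.000170 to 0.122 over the alternatives. The 2 are neighboring coding genes on chromosome 12 although they encode keratins of different types. The reference lists 52 numbered pseudogenes of KRT8 and 68 of KRT18, and whether the probes also match those was not tested.

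KRT19, a small type I keratin of simple epithelia, had 11.65, 12.04 and 12.45 in MDA-MB-231-hOSM, against 11.29, 11.04 and 10.57 in MDA-MB-231-hC. The groups did not overlap, but the gap was 0.36 in set 1, 1.00 in set 2 and 1.88 in set 3, with a mean of 2.11-fold (log2 difference 1.08, SE 0.27, adjusted p = 0.0528). It was 0.68 without set 3 (adjusted p = 0.211) and 1.12 without set 2 (adjusted p = 0.227), within 0.0151 to 0.227 over the alternatives. KRT7, another type II keratin of simple epithelia, overlapped between the lines at 11.97, 12.58 and 12.49 in MDA-MB-231-hOSM and 13.18, 12.57 and 12.63 in MDA-MB-231-hC (log2 difference -0.45, 95% interval -1.04 to 0.14, adjusted p = 0.285), set 1 being the only one with a clear gap. Without set 1 its log2 difference was -0.07. KRT80, the neighboring coding gene of KRT7, had a log2 difference of -0.49 (adjusted p = 0.0534), under 2-fold, and KRT16 -0.05.

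The basal keratins KRT5 and KRT14 lay below the background guide in both lines. KRT5 had 5.33, 5.16 and 5.12 in MDA-MB-231-hOSM and 5.11, 5.29 and 5.35 in MDA-MB-231-hC, and KRT14 had 3.50, 3.71 and 3.55 in MDA-MB-231-hOSM and 3.72, 3.52 and 3.66 in MDA-MB-231-hC. The 2 lines overlapped for both genes.

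Within sets, the direction was the same in all 3 sets for each of the 10 members that passed. These members were called on the same differences, so the shared direction adds no separate support. Of the 7 lower members, 6 had their smallest difference in set 3, the exception being EPCAM with set 1. Over all 336 transcript clusters that passed as lower, 34.2% had the smallest difference in set 3. The 3 keratins had theirs in set 1 (KRT18 and KRT19) or set 2 (KRT8), and over all 557 transcript clusters that passed as higher 19.4% had the smallest in set 3.

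**Figure D2:**
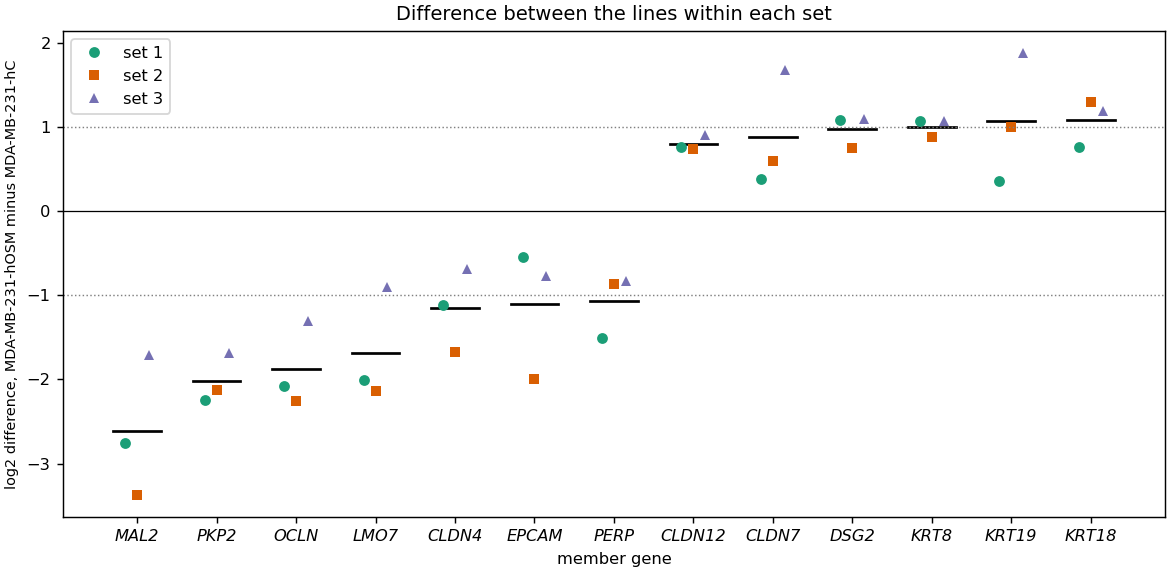
Log2 difference, MDA-MB-231-hOSM minus MDA-MB-231-hC, within each set for the 10 members that passed and for CLDN12, CLDN7 and DSG2, which had an adjusted p under 0.1 and changes of 1.5-fold to 2-fold. Points are sets, black bars their mean and dotted lines 2-fold. For OCLN, PKP2, MAL2, LMO7 and CLDN4 the point of set 3 is nearest to 0, and for KRT19 and CLDN7 it is farthest.

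Other genes of the same structures were counted from lists written with earlier results of these data known, and each count stands against the 4.16% of all transcript clusters that passed (6.17% of those at or above the guide). Of 23 other tight junction genes, ILDR2, an angulin of tricellular junctions, was lower (log2 difference -1.15, adjusted p = 0.0135), none was higher and 22 did not pass. Of 15 adherens junction genes, CDH11, a cadherin of mesenchymal cells, was higher (log2 difference 2.14, adjusted p = 0.00421) and 14 did not pass, among them the catenin genes CTNNA1 and CTNNB1 at -0.11 and -0.05. CDH3, which encodes P-cadherin, was 1.78-fold higher (adjusted p = 0.00962), under the limit, with a mean below the guide in both lines. NECTIN1, AJUBA and VCL were lower and also under the limit, with means above the guide in both lines. Their log2 differences were -0.99, -0.64 and -0.54 (adjusted p = 0.00516, 0.0224 and 0.0399 from limma). None of 7 other desmosome and plaque genes passed, 2 of them having an unadjusted p under 0.05. Of 19 other polarity genes, PARD3B and DLG3 were lower (log2 differences -1.43 and -1.13, adjusted p = 0.00163 and 0.00503), PARD3B reaching a mean of 5.56 in MDA-MB-231-hOSM, below the guide, against 6.99 in MDA-MB-231-hC, and 17 did not pass. None of 24 other keratins passed, 22 of which lay below the guide in both lines, with 2 at an unadjusted p under 0.05.

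The 2 further lists were written with the same knowledge, and their counts stand against the same 4.16% of all transcript clusters. Of 20 epithelial transcription factors and surface genes, 2 rose, 2 fell and 16 did not pass. EHF, an ETS factor of epithelia, had 14.66, 14.53 and 14.69 in MDA-MB-231-hOSM, against 12.90, 13.04 and 12.85 in MDA-MB-231-hC (3.24-fold higher, adjusted p = 0.00106). MUC1, an apical mucin, was 2.58-fold higher over a background level (adjusted p = 0.00322). KLF4 and CD24, a surface glycoprotein of luminal cells, had log2 differences of -1.22 and -1.09 (adjusted p = 0.0194 and 0.00356), KLF4 reaching a level below the guide in MDA-MB-231-hOSM. Of 8 repressors of epithelial genes and mesenchymal filament genes, 4 rose and 4 did not pass. SNAI1, a zinc finger repressor of epithelial genes, had 6.87, 7.08 and 6.69 in MDA-MB-231-hOSM, against 4.55, 4.33 and 4.67 in MDA-MB-231-hC, where it lay in the background range. ZEB2, TCF4 and SNAI2 were higher by 1.36, 1.34 and 1.04 on the log2 scale (adjusted p = 0.00270, 0.00731 and 0.00480), and ZEB1 had a log2 difference of 0.21 (adjusted p = 0.357).

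**Figure D3:**
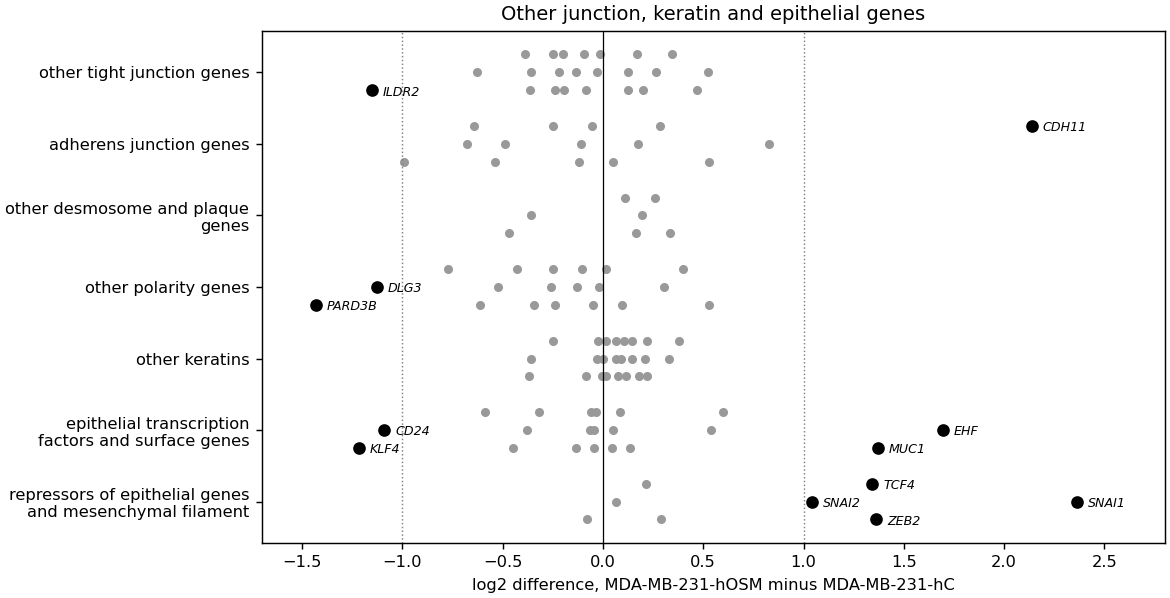
Log2 difference, MDA-MB-231-hOSM minus MDA-MB-231-hC, of the measured genes in 7 lists, 1 point per gene with a vertical offset for legibility only. Black, named points passed and grey points did not, and dotted lines mark 2-fold. Keratins outside the members stay within -0.37 to 0.38, but 22 of these 24 lay below the background guide in both lines, where a change cannot be judged. SNAI1, SNAI2, ZEB2 and TCF4 lie to the right.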

How the data were processed

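RNA of 6 cultures was hybridized to Human Clariom S arrays. The authors deposited 1 log2 signal per transcript cluster and array, made with the Transcriptome Analysis Console 4.0 and RMA according to the submitters' processing notes. Neither the array library version nor a genome build is given in the sources used here. The 21448 transcript clusters were used as deposited, and 17709 carry 1 gene in the platform annotation, 0 carry several and 3739 carry none. Symbols were brought up to date with RefSeq GRCh38.p14. Each measured member had 1 transcript cluster, so the planned rule of keeping the transcript cluster with the highest mean was not needed.

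Sets pair the arrays, because the labels give both lines the same replicate numbers and the lines grew in parallel. That a shared number means a shared passage is an inference. The 2 arrays of a set deviate from their group means as mirror images (Pearson's r -0.993, -0.995 and -0.992 in sets 1, 2 and 3, over transcript clusters, not independent replicates), so the average of a set hardly varies between sets, and SDs within a line may understate the spread between passages. The comparison was therefore limma 3.58.1 (R 4.3.3) on all transcript clusters with the set as a block, adjusted by Benjamini-Hochberg, with calls at adjusted p under 0.1 and more than 2-fold, the thresholds in the methods. The fit was tested on simulated data. The alternatives were no block, quantile normalization, median centring, removal of dim transcript clusters, trended and robust eBayes, other thresholds, and each set or array left out.

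The members and gene lists were chosen with earlier results of these data known. Values in every array are given for called members, for members with adjusted p under 0.1 and 1.5-fold to 2-fold changes, and for CDH1, EPCAM, TJP1, CLDN1, DSP, JUP, KRT5, KRT7, KRT8, KRT14, KRT18 and KRT19; called genes of the other lists are named up to 4 per list.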

Additional observations from a re-analysis of the deposited data

How the results depend on the processing

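Without the block for the pairing, 561 transcript clusters passed as higher and 338 as lower, against 557 and 336 with it, and the same 3 higher and 7 lower members passed. The block thus changed no call of a member. Quantile normalization, median centring, removal of dim transcript clusters and trended, robust eBayes changed the call of 1 member, KRT8 (0.96 with quantile normalization), and with adjusted p under 0.05 EPCAM and KRT19 did not pass. Without a fold limit 6 members passed as higher and 9 as lower, 1977 transcript clusters as higher and 2240 as lower, and 26 genes of the other lists in place of 12. At 1.5-fold these were 6 members higher and 7 lower, 1269 and 1226 transcript clusters and 20 genes. With each set left out, which with the block equals leaving out 1 of its arrays and leaves 1 residual degree of freedom, 0 to 2 members passed as higher, 3 to 5 as lower and 8 to 12 other list genes, against 413 to 524 and 250 to 350 transcript clusters in all. Leaving out single arrays without the block, 1 to 4 members passed as higher and 6 to 7 as lower, the 1 without replicate 3 of either line. No member that passed changed direction in any alternative. For most alternatives this could not have come out otherwise. The arrays of the lines did not overlap for these members, so leaving out sets or arrays could not reverse a difference. Other thresholds leave the differences as they are. Of the members whose values on every array are given, those that changed sign had not passed (the signs of the other members were not followed), and their log2 differences over the alternatives were -0.025 to 0.47 for CLDN1, -0.23 to 0.055 for CDH1, -0.25 to 0.40 for JUP, -0.18 to 0.045 for KRT5 and -0.17 to 0.04 for KRT14. With single arrays left out and no block, these included 0.0017 for CDH1 (without MDA-MB-231-hOSM replicate 1), -0.093 and -0.09 for JUP (without replicate 3 of MDA-MB-231-hOSM and of MDA-MB-231-hC) and 0.0033 for KRT5 (without MDA-MB-231-hC replicate 3). The cause was not tested. Signals near or below the background guide in 1 line limit MAL2, CLDN4, MUC1, KLF4, SNAI1 and PARD3B, and 3 arrays per line limit the precision of all values.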
